A study of Mus musculus with 6 samples.

Results

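Matrix proteases and their inhibitors were followed in C2C12 cells, a mouse myoblast line that fuses into multinucleated myotubes when serum is lowered. The members were the genes of the count table whose symbol names a matrix metalloproteinase (MMP), an ADAM or ADAMTS protease or a tissue inhibitor of metalloproteinases (TIMP), with the membrane-anchored inhibitor Reck added. The rule found 74 of the 27179 genes in the table: 23 MMP, 27 ADAM and 19 ADAMTS genes, and the 5 inhibitor genes Timp1 to Timp4 and Reck. ADAM genes with a letter in their name, such as Adam1a, fall outside it. Myotubes, 3 libraries, were made after 3 days at 100% confluence and 5 further days of differentiation in 2% horse serum, to which insulin, transferrin, selenium and ethanolamine had been added. Myoblasts, 3 libraries, were kept below confluence in 10% fetal bovine serum. Both media were high-glucose DMEM with 4 mM glutamine, so serum, supplements, cell density and differentiation differ together between the groups. Both groups are the same line. Separate cultures are not named in the labels. The p-values therefore cover the spread among these 6 libraries alone, and that spread may be technical.

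Metalloproteinases of these families cut with a zinc ion held in their active site. MMPs degrade collagens and other matrix proteins, either as secreted enzymes or bound to the membrane. ADAMs are membrane proteins, many of which shed the outer parts of growth factors and receptors, and ADAMTS enzymes are secreted proteases of procollagens and of large proteoglycans such as versican. TIMPs are small secreted proteins that block the active site, and Reck holds MMPs in check at the cell surface. In muscle, such proteases are known from the remodelling of the matrix around satellite cells and fusing myoblasts.

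The libraries held 7370169 to 8339589 counts in myotubes and 10076945 to 11723881 in myoblasts, of which the members took 0.39 to 0.40% in myotubes and 0.373 to 0.375% in myoblasts. The labels were checked on marker genes. The 5 myotube markers (Ckm, Acta1, Tnnt3, Myh3, Mymk) summed to 10400 to 11100 CPM in myotubes and 41.1 to 50.1 CPM in myoblasts. CPM are counts scaled to a common library size, with a correction for composition. The 5 markers of proliferating myoblasts (Mki67, Top2a, Ccnb1, Id3, Cdk1) summed to 127 to 134 CPM in myotubes and 1770 to 1790 CPM in myoblasts. In bulk RNA, fewer cells of a type and less RNA per cell cannot be told apart. Of 5 fibroblast markers, Dcn was higher in myotubes (237 CPM against 6.92 CPM in myoblasts) and Pdgfra lower, while Lum and Thy1 were near 0 and Tcf21 had no counts. The summed level of this list was 230 to 263 CPM in myotubes and 23.7 to 28.2 CPM in myoblasts, and its part in the results below was not tested. The markers of adipocytes summed to at most 0.428 CPM in myotubes and 0.0898 CPM in myoblasts, with Adipoq at 0. Endothelial markers summed to 1.01 to 1.71 CPM in myotubes and 0.376 to 0.718 CPM in myoblasts, with Emcn at 0. Macrophage markers summed to 3.71 to 4.67 CPM in myotubes and 1.88 to 2.42 CPM in myoblasts, and of these Adgre1 was at 0, Ptprc had 1 count in each group, and Itgam rose. Osteoblast markers summed to 38.4 to 41.8 CPM in myotubes and 80.3 to 84.4 CPM in myoblasts, almost all of it Runx2, with Ibsp at 0. Chondrocyte markers summed to 63.4 to 68.8 CPM in myotubes and 94.2 to 104 CPM in myoblasts, almost all of it Sox9, with Col9a1 at 0.

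The secreted collagenases and their chromosome 9 neighbours had almost no counts in either state. Of the 74 members, 24 had 0 counts in every library, 16 had counts but stayed under the filter on low counts, and 34 were tested. A count of 0 allows up to 3 counts over a group, which is 0.134 CPM in myotubes and 0.088 CPM in myoblasts. The 24 were Mmp1a, Mmp1b, Mmp3, Mmp7, Mmp8, Mmp12, Mmp20 and Mmp27, the ADAM genes Adam2, Adam3, Adam7, Adam18, Adam20, Adam24, Adam25, Adam28, Adam29, Adam30, Adam33, Adam34 and Adam39, and Adamts13, Adamts18 and Adamts19. Many of these ADAM genes are known from testis and sperm, and Adamts13 is the liver-made protease of von Willebrand factor. The collagenases, the stromelysin Mmp3, the matrilysin Mmp7, the macrophage elastase Mmp12 and the enamel protease Mmp20 belong to a run of 10 MMP genes on chromosome 9, from 7272514 to 7699585 in GRCm38. In that run 8 genes had no count at all, and the other 2, Mmp10 and Mmp13, had 2 counts each over the myotube libraries, against 7 and 2 counts over the myoblast libraries.

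Most promoters of that run hold one short sequence in common. The RefSeq promoters, 250 bases before and 50 bases from each start site on, were available for 45 members and were searched for TGANTCA. It covers TGACTCA and TGAGTCA, the recognition sequences of AP-1, and also runs with A or T in the middle. AP-1 is made of the FOS and JUN factors that are known to drive several MMP genes. The letters of TGANTCA read the same on both strands apart from the free middle base, and it overlapped no match to the second sequence searched. All 10 genes of the run had at least 1 promoter entry, and in 8 of them an entry held the sequence, 35 to 95 bases before the start site. It was found in 4 of the other 35 members, where a gene counts when any of its entries holds it. Counted by single entries, it stood in 24% of the 50 member promoters and in 7.81% of the 32851 promoters of the table. The matches of Mmp20, at 95 bases, and of Adam20 and Adam25 have A in the middle and are not the AP-1 sequence. These MMP genes are related copies of each other, so their shared letters are no independent observations, and a match is a description of the letters and not of a bound factor. The promoters of Mmp13 (chr9:7272264-7272563), Mmp3 (chr9:7445572-7445871) and Mmp10 (chr9:7502092-7502391), all on the plus strand of GRCm38.p6, show it in capitals.
Mmp13: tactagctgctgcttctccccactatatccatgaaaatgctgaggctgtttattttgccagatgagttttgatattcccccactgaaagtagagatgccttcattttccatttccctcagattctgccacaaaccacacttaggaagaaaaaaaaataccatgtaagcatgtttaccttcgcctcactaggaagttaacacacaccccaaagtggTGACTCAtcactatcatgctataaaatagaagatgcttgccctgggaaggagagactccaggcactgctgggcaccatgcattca
Mmp3: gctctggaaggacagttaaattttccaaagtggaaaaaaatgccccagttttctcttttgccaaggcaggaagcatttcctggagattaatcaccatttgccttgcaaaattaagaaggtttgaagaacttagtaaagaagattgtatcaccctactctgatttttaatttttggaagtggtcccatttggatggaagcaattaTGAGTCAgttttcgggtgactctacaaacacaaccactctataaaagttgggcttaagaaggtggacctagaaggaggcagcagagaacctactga
Mmp10: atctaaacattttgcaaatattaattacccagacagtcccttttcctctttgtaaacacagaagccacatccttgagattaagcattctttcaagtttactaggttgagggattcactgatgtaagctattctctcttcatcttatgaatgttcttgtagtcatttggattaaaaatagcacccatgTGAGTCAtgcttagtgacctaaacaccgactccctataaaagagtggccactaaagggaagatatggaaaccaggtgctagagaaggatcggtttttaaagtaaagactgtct

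The members under the filter held few reads. Mmp9, the second gelatinase, had 0, 2 and 1 counts in the myotube libraries, against 1, 3 and 2 counts in the myoblast libraries. Mmp17 had 27 counts over the myotube libraries, against 22 over the myoblast libraries. Mmp21 and Mmp25 had 0 counts in myotubes, against 4 and 3 counts in myoblasts, and Mmp24 had 1 count, against 4. In the ADAM family, Adam4, Adam21, Adam22 and Adam32 had 5, 1, 9 and 7 counts over the myotube libraries, against 25, 6, 24 and 10 over the myoblast libraries. The counting interval of the ratio lay below 1 for Adam4 alone of these 4 (ratio 0.305, 95% interval 0.0912 to 0.812), and 17.4% of its 50-base windows have an exact copy in another transcript. In the ADAMTS family, Adamts9 and Adamts20 had 3 and 2 counts over the myotube libraries, against 1 and 0 over the myoblast libraries. The remaining members of this class, Adamts8, Adamts17 and Timp4, had more counts in myotubes and are described with their families. The intervals cover counting error only.

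Among the 34 tested members, 15 rose and 14 fell in myotubes by edgeR's quasi-likelihood test at an adjusted p of 0.05, 29 in all or 85.3%. Of all 12800 genes tested, 79.5% were called, 40.2% higher and 39.2% lower, so the share of members called lay near that of all genes. The median log2 change of the members was −0.06, beside 0.02 for all genes. A test against a 2-fold change called 11 members higher and 2 lower, where the shares over all genes were 12.4% and 9.2%. Groups did not overlap for 28 of the 34 members, and for 80.5% of all genes. Adamts15 and Adamts16 reached the filter's level of 1.09 CPM in all 3 libraries of myotubes alone, and Adam5, Adam11 and Mmp23 in those of myoblasts alone. These 5 were thus tested through the group where they are high, which favoured a difference, and their calls carry that limit. By family, 9 of 12 tested ADAMTS genes rose and 2 fell, with a median log2 change of 1.39. Of 10 ADAM genes 2 rose and 7 fell (median −0.27), and of 8 MMP genes 4 rose and 2 fell (median 0.19). Of the 4 inhibitors tested 3 fell (median −0.37). With scaling by total counts in place of trimmed mean of M-values (TMM), which lowers the median log2 change of all genes to −0.13, the counts were 8 and 2 for ADAMTS, 1 and 8 for ADAM, 4 and 3 for MMP, and 0 and 4 for inhibitors. No test of the difference between families was run.

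**Figure D1:**
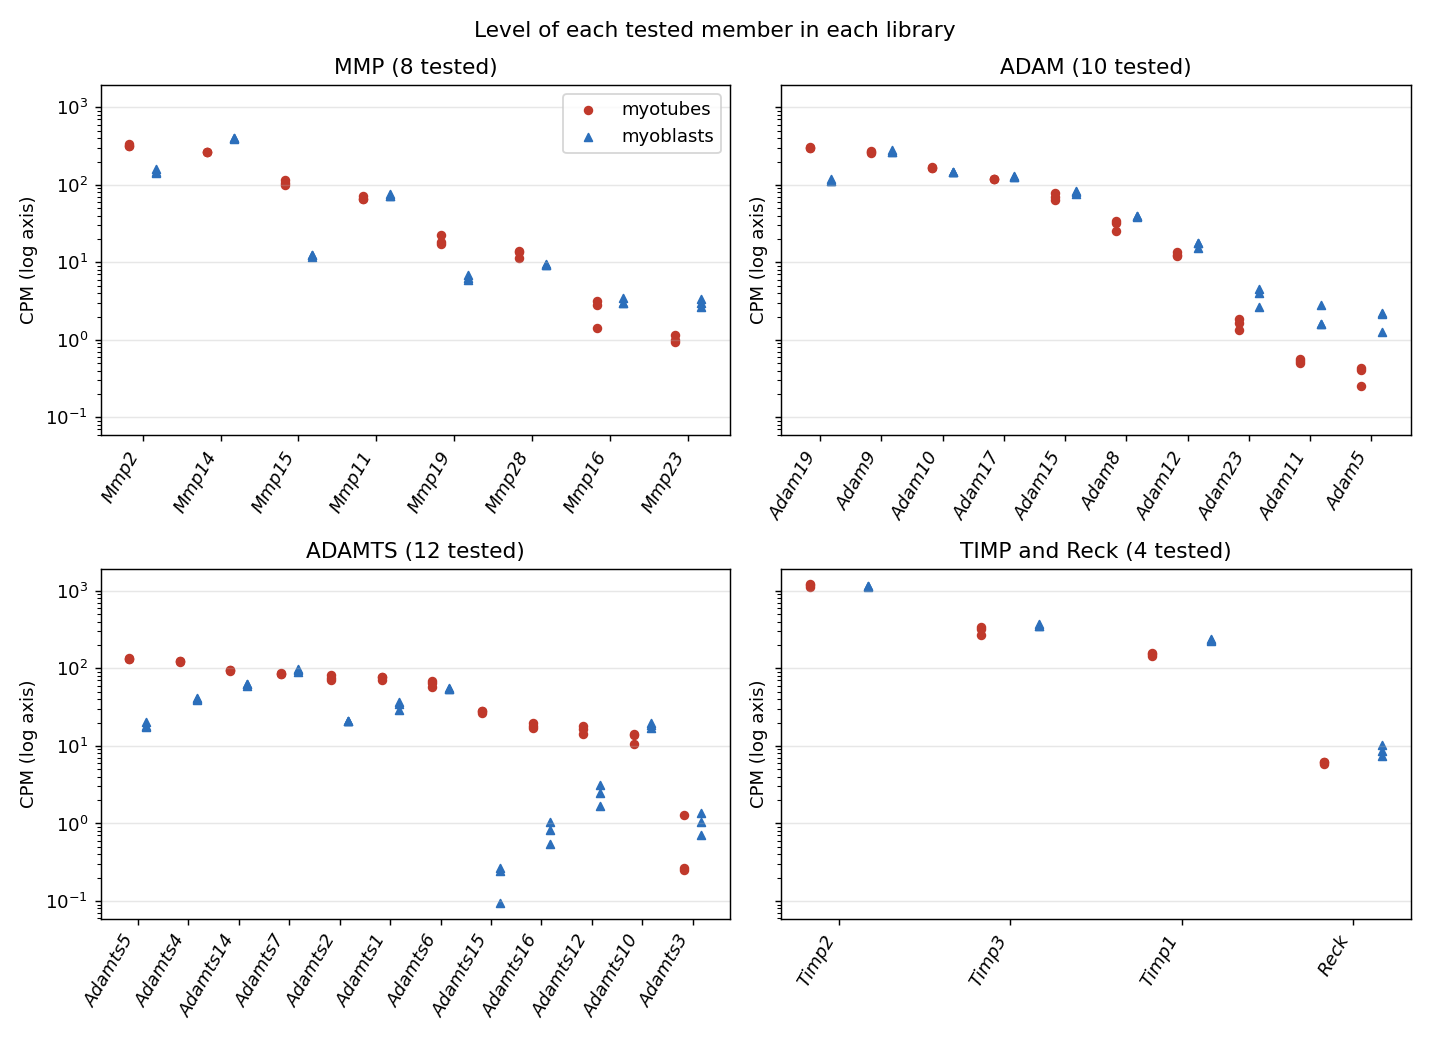
TMM-scaled CPM (log axis) of the 34 tested members in each of the 3 myotube libraries (red circles) and 3 myoblast libraries (blue triangles), by family. Adamts15, Adamts16, Adamts12, Adamts5 and Mmp15 stand far above their myoblast values, while most ADAM and TIMP genes lie close together in both groups.

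**Figure D2:**
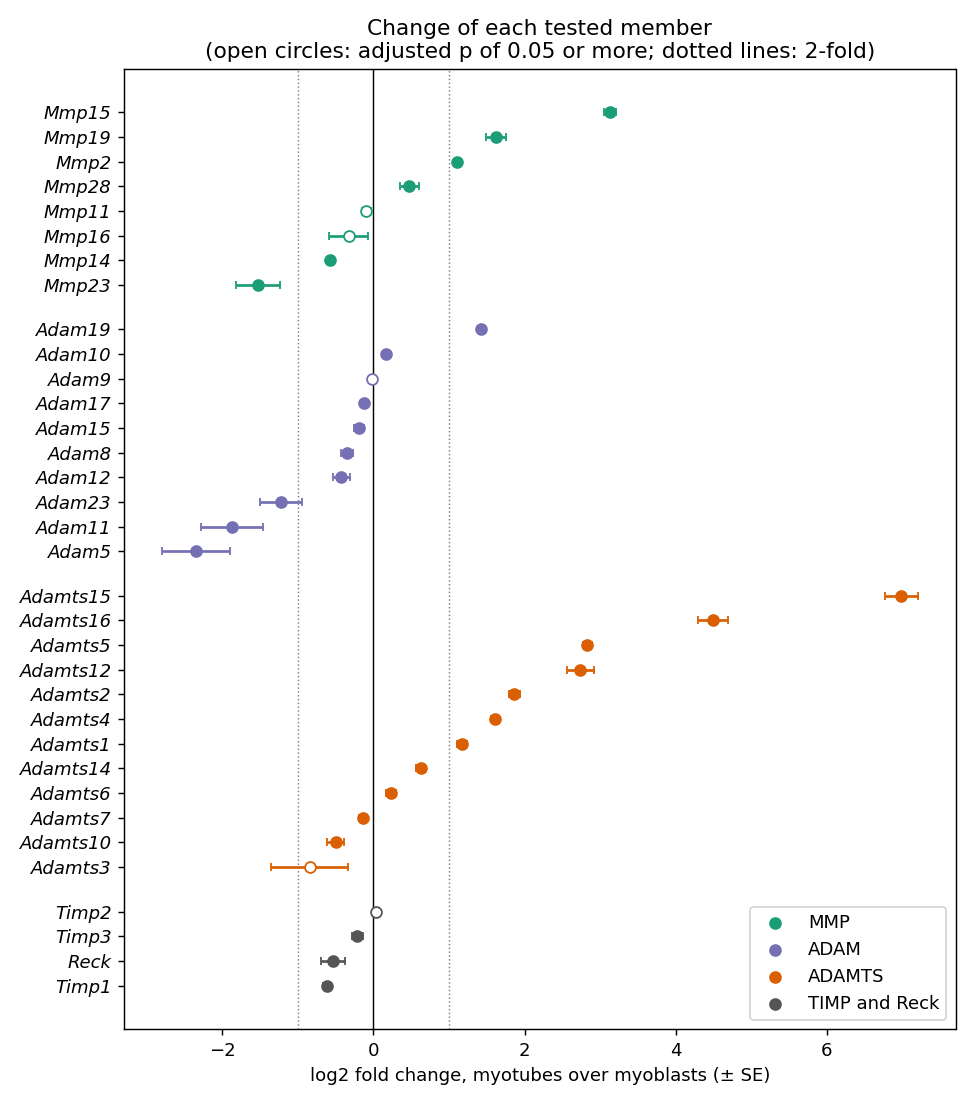
Log2 fold change of myotubes over myoblasts with its standard error for each tested member, by family. Filled circles passed an adjusted p of 0.05 and open circles did not, and the dotted lines mark a 2-fold change. ADAMTS genes reach from −0.84 (Adamts3) to 6.98 (Adamts15).

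Among the MMPs, the gelatinase Mmp2 and the membrane-type Mmp15 rose and the membrane-type Mmp14 fell. Mmp2, the gelatinase that also cuts basement membrane collagen (Entrez gene 17390, chromosome 8, 92827291 to 92853420), with coordinates of genes in GRCm38 here and below, had 335, 315 and 314 CPM in myotubes, against 142, 158 and 148 CPM in myoblasts. All 3 myotube values lay above all 3 myoblast values, with a 2.15-fold rise (log2 change 1.10, SE 0.045, adjusted p = 1.45e-17). The test against a 2-fold change passed narrowly (adjusted p = 0.0159) and was lost in 7 of 13 alternatives, among them without myotube library 1 (adjusted p = 0.0698) and without myoblast library 1 (0.156) or 3 (0.0516). Mmp14, the membrane-type MMP known to activate pro-MMP2 at the cell surface with the help of TIMP2 (Entrez gene 17387, chromosome 14, 54431612 to 54445364), had 269, 267 and 266 CPM in myotubes, against 389, 400.5 and 400.4 CPM in myoblasts. It fell to 67.4% of its myoblast level (log2 change −0.57, SE 0.038, adjusted p = 4.64e-13), and no library of one group reached the other.

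A second membrane-type enzyme, Mmp15 (Entrez gene 17388, chromosome 8, 95352268 to 95375080), rose most of all MMPs tested. It had 105, 116 and 100.2 CPM in myotubes, against 12.3, 12.5 and 11.9 CPM in myoblasts, an 8.76-fold rise (log2 change 3.13, SE 0.076, adjusted p = 2.31e-22). The myotube libraries were all higher, with no overlap. Mmp16, also membrane-bound, had 1.43, 2.84 and 3.15 CPM in myotubes, against 2.96, 3.004 and 3.48 CPM in myoblasts and did not pass (adjusted p = 0.249), its lowest value lying in myotube library 1.

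Mmp19 had 17.4, 22.8 and 18.4 CPM in myotubes, against 6.91, 5.93 and 6.304 CPM in myoblasts, a 3.06-fold rise (log2 change 1.62, SE 0.13, adjusted p = 2.68e-11). On the opposite strand, exons of other genes cover 28.3% of its exon bases, chiefly Tmem198b, which averaged 19.3 CPM in myotubes against 30.8 CPM in myoblasts. Whether the counting used strand is not stated in the sources, which leaves the level of Mmp19 uncertain. Mmp28, epilysin, had 11.4, 13.9 and 13.6 CPM in myotubes, against 9.24, 9.5 and 9.31 CPM in myoblasts and rose by 0.48 on the log2 scale (SE 0.12, adjusted p = 0.0012), with 12% of its exon bases shared with an antisense transcript. Its groups did not overlap.

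Mmp11, a stromelysin cut by furin inside the cell, had 66, 72.9 and 66.4 CPM in myotubes, against 75.4, 71.9 and 71.6 CPM in myoblasts and missed the threshold, with a log2 change of −0.09 (SE 0.057, adjusted p = 0.139). Exons of Chchd10 on the opposite strand cover 5.58% of its exon bases, and Chchd10 averaged 33.8 CPM in myotubes against 1.49 CPM in myoblasts. The groups of Mmp11 overlapped, since myotube library 2 lay above 2 of the myoblast libraries. It was called lower in 3 alternatives (adjusted p 0.000465 to 0.321 over 13 alternatives). Its log2 change was −0.14 without myotube library 2 (adjusted p = 0.048), −0.14 with no filter (0.0327) and −0.24 with scaling by total counts (0.000465). Mmp23 fell to 1.14, 0.946 and 1.01 CPM in myotubes, against 3.32, 2.68 and 3.01 CPM in myoblasts (log2 change −1.53, SE 0.29, adjusted p = 4.33e-05). It was tested only through its myoblast libraries.

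Of 7 ADAMTS genes that cleave versican and the other hyalectans, 4 were tested. Adamts15, Adamts5, Adamts4 and Adamts1 all rose past the test against a 2-fold change, a call made for 12.4% of all genes, with a median log2 change of 2.22, and Adamts15 was tested only through its myotube libraries. The other 3, Adamts8, Adamts9 and Adamts20, stayed under the filter, and the last 2 had too few counts to show a difference. Adamts15 (Entrez gene 235130, chromosome 9, 30899155 to 30922452) had 27.9, 28.4 and 26.6 CPM in myotubes, against 0.269, 0.244 and 0.0941 CPM in myoblasts. Its 617 counts over the myotube libraries stood against 7 over the myoblast libraries, a scaled ratio of 134 (95% counting interval 64.9 to 336). The fitted log2 change was 6.98 (adjusted p = 5.61e-20), and the fitted SE, 0.22, is too small at so few myoblast counts. It had the highest log2 change of the 34 members.

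Adamts5 (Entrez gene 23794, chromosome 16, 85856173 to 85901828), an aggrecanase that also cuts versican, had 131, 133 and 135 CPM in myotubes, against 17.3, 20.2 and 18.3 CPM in myoblasts. The rise was 7.13-fold (log2 change 2.83, SE 0.063, adjusted p = 4.63e-23), and the lowest myotube value lay far above the highest myoblast value. Adamts4 had 126, 126 and 119.6 CPM in myotubes, against 40.1, 42.1 and 39.6 CPM in myoblasts, a 3.05-fold rise (log2 change 1.61, SE 0.055, adjusted p = 3.59e-19). All 3 myotube libraries lay above the myoblast libraries.

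Adamts1 had 78.1, 78.1 and 70.7 CPM in myotubes, against 34.3, 36.7 and 29.2 CPM in myoblasts, a 2.27-fold rise (log2 change 1.17, SE 0.073, adjusted p = 1.08e-13). Its groups did not overlap, but the call of over 2-fold was lost in 5 of 13 alternatives, among them without myotube library 2 (adjusted p = 0.0572) and without myoblast library 3 (0.177). Adamts8, under the filter, had 7, 7 and 10 counts in the myotube libraries and none in the myoblast libraries. That is 12.2-fold higher than 3 counts over the myoblast group would give. The 95% counting interval of the ratio starts at 9.18. An antisense transcript shares 10.6% of its exon bases. Their substrate versican (Vcan) averaged 504 ± 14.9 CPM in myotubes and 500 ± 8.93 CPM in myoblasts (SD, n = 3 each) and was not called, at a log2 change of 0.01 (SE 0.038, adjusted p = 0.776).

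Procollagen aminopropeptidases, which trim fibrillar procollagens outside the cell, split by gene. Adamts2 had 70.8, 75.6 and 82.4 CPM in myotubes, against 20.7, 21.1 and 21.2 CPM in myoblasts, a 3.63-fold rise (log2 change 1.86, SE 0.071, adjusted p = 3.93e-18). Adamts14 had 92.1, 95.2 and 95.8 CPM in myotubes, against 62.4, 62.7 and 58.5 CPM in myoblasts and rose 1.54-fold (log2 change 0.62, SE 0.054, adjusted p = 7.7e-11). In both genes every myotube library exceeded every myoblast library. Adamts3 had 9, 2 and 2 counts in the myotube libraries, against 8, 17 and 11 in the myoblast libraries, and did not pass (log2 change −0.84, adjusted p = 0.13). Without myotube library 1, the high one, it was called lower with a log2 change of −1.96 (adjusted p 0.00682, and adjusted p 0.00682 to 0.436 over 12 alternatives).

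The remaining ADAMTS genes went both ways. Adamts16 had 16.8, 19.6 and 17.9 CPM in myotubes, against 0.538, 0.812 and 1.03 CPM in myoblasts, a 22.8-fold rise with 27 counts over the myoblast libraries (log2 change 4.49, SE 0.20, adjusted p = 8.22e-17). It was tested only through its myotube libraries, and its fitted SE is too small at so few myoblast counts. Adamts12 had 16.4, 18.2 and 14.4 CPM in myotubes, against 3.14, 2.44 and 1.69 CPM in myoblasts, a 6.74-fold rise (log2 change 2.74, SE 0.17, adjusted p = 2.01e-13). The myoblast values of both genes spread widely in proportion, yet all stayed below the myotube values.

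Adamts6 had 65.6, 69.6 and 58.4 CPM in myotubes, against 54.7, 55.6 and 53.8 CPM in myoblasts and rose by 0.23 on the log2 scale (SE 0.064, adjusted p = 0.00169), a call lost with scaling by total counts (adjusted p 6.44e-05 to 0.205 over 13 alternatives). Adamts17, under the filter, had 3, 7 and 9 counts in the myotube libraries, against 1, 0 and 0 in the myoblast libraries (ratio 29, 95% counting interval 4.61 to 1200). Adamts7, which cuts the cartilage matrix protein COMP, had 84.8, 88.1 and 84.9 CPM in myotubes, against 97.4, 90.9 and 94.6 CPM in myoblasts. It fell by 0.13 on the log2 scale (SE 0.051, adjusted p = 0.0208), and the call was lost without myoblast library 1 and in the DESeq2 Wald test (adjusted p 2.18e-05 to 0.0875 over 13 alternatives). Adamts10, a partner of fibrillin microfibrils, had 14.4, 13.9 and 10.7 CPM in myotubes, against 18.4, 19.6 and 16.8 CPM in myoblasts and fell by 0.50 (SE 0.12, adjusted p = 0.000409).

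The promoters of Adamts2 and Adamts12, of the ADAMTS genes that rose, are shown because the RefSeq table held them with a match to CAGCTG, a form of the E-box that MyoD and myogenin are known to bind. This letter run reads the same on both strands and stood in 16.3% of all promoters of the table and in 20% of the 50 member promoters. It was found in 3 of 8 risen members with an entry (Adam19, Adamts2, Adamts12) and in 2 of 9 that fell (Reck, Adam17). A gene was counted when any of its entries held a match. Those of Adam19 lay in an entry inside the gene (chr11:46127654-46127953), and its other entries held none. Adamts15, Adamts16, Adamts5, Adamts4 and Mmp2, which also rose, had no entry. It overlapped no TGANTCA match in the 2 promoters printed. Adamts2 (chr11:50601835-50602134, plus strand, GRCm38.p6) holds it 24 and 8 bases before the start site and Adamts12 (chr15:11064523-11064822, plus strand) 175 bases before it, in capitals. No binding was measured.
Adamts2: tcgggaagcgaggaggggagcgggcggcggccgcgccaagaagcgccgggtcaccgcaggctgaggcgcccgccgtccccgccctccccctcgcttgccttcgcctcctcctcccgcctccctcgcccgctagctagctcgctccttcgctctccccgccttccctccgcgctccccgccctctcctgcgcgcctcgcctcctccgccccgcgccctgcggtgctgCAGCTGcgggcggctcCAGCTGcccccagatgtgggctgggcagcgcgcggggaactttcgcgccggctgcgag
Adamts12: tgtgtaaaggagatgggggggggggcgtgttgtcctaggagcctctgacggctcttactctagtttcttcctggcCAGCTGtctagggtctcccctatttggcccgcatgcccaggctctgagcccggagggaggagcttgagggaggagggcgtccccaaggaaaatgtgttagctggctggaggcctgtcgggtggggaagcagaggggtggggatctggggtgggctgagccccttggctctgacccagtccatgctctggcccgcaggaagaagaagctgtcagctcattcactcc

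Of the 10 tested ADAM genes, Adam19 and Adam10 rose. Adam19, or meltrin beta (Entrez gene 11492, chromosome 11, 46055992 to 46147343), had 307, 303 and 302 CPM in myotubes, against 111, 118 and 111 CPM in myoblasts, a 2.68-fold rise with no overlap (log2 change 1.42, SE 0.042, adjusted p = 1.62e-20). Antisense transcripts share 10.1% of its exon bases. Adam12, or meltrin alpha, a metalloproteinase long studied in myoblast fusion, had 13.5, 12.2 and 12.4 CPM in myotubes, against 15.2, 17.9 and 17.97 CPM in myoblasts and fell by 0.43 on the log2 scale (SE 0.11, adjusted p = 0.00135).

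The broadly expressed sheddases moved little. Adam10, which cuts Notch and the amyloid precursor, had 165, 164 and 169 CPM in myotubes, against 147, 146 and 148 CPM in myoblasts and rose by 0.17 (SE 0.042, adjusted p = 0.000635), a call lost with scaling by total counts (adjusted p 0.000427 to 0.594 over 13 alternatives). Adam17, which sheds tumour necrosis factor and ligands of the EGF receptor, had 117, 117 and 119 CPM in myotubes, against 126, 128 and 130.1 CPM in myoblasts and fell by 0.12 (SE 0.045, adjusted p = 0.0196). Antisense exons of Iah1 cover 4.35% of the exon bases of Adam17. Neither gene's groups overlapped, and the Adam17 call was lost without myotube library 2 (adjusted p = 0.0504) and without myoblast library 3 (0.0559), and in the DESeq2 Wald test (adjusted p 7.8e-06 to 0.0857 over 13 alternatives). Adam9, the most abundant ADAM per length in both groups, had 259.6, 264 and 275 CPM in myotubes, against 266, 279 and 267 CPM in myoblasts. It missed the threshold at a log2 change of −0.02 (SE 0.04, adjusted p = 0.588), and its groups overlapped. With scaling by total counts it was called lower, at a log2 change of −0.17 (adjusted p = 0.000393, and adjusted p 0.000393 to 0.96 over 13 alternatives).

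Adam15 had 78.3, 69.8 and 64.3 CPM in myotubes, against 84.01, 81.8 and 75.9 CPM in myoblasts and fell by 0.19 (SE 0.063, adjusted p = 0.00822), with overlapping groups. The call was lost without myotube library 3 (adjusted p 3.05e-05 to 0.0683 over 13 alternatives), and an antisense transcript shares 20.6% of its exon bases. Adam8 had 32.6, 34.6 and 25.7 CPM in myotubes, against 39.4, 38.9 and 39.6 CPM in myoblasts and fell by 0.35 (SE 0.084, adjusted p = 0.000592), with no overlap.

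Among the tested ADAM genes, those with few counts fell furthest. Adam5 and Adam11 were tested only through their myoblast libraries, which favoured a difference. Adam11 and Adam23 are relatives without a working protease site, known from neurons, and Adam5 is known from testis. Adam5 had 3, 3 and 2 counts in the myotube libraries, against 14, 27 and 23 in the myoblast libraries (ratio 0.191, 95% counting interval 0.079 to 0.399, log2 change −2.35, SE 0.45, adjusted p = 3.97e-05). Adam11 had 4 counts in each myotube library, against 31, 20 and 17 in the myoblast libraries (ratio 0.269, 95% counting interval 0.133 to 0.501, adjusted p = 0.000187). These 2 were the members past the test against a 2-fold fall, at adjusted p = 0.00519 for Adam5 and 0.032 for Adam11. Adam11 lost that call without any one myotube library, without myoblast library 1, in the DESeq2 Wald test (adjusted p = 0.605) and in limma-voom (0.199). Adam5 lost it in the DESeq2 Wald test (adjusted p = 0.205). Adam23 had 1.85, 1.35 and 1.64 CPM in myotubes, against 2.69, 4.55 and 4.05 CPM in myoblasts (log2 change −1.22, SE 0.28, adjusted p = 0.000274).

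Of the 4 tested inhibitor genes, Timp1, Timp3 and Reck fell and Timp2 was not called. Timp2 (Entrez gene 21858, chromosome 11, 118301069 to 118355740) had 1124, 1212 and 1199.7 CPM in myotubes, against 1151, 1131 and 1156 CPM in myoblasts, with overlapping groups, and a log2 change of 0.04 that was not called (SE 0.038, adjusted p = 0.32). With scaling by total counts its log2 change was −0.11 and passed (adjusted p = 0.0122, and adjusted p 0.0122 to 0.902 over 13 alternatives). Timp1 (Entrez gene 21857, chromosome X, 20870166 to 20874735) had 156, 145 and 153 CPM in myotubes, against 237, 225 and 235 CPM in myoblasts. It fell to 65.1% of its myoblast level with no overlap (log2 change −0.62, SE 0.043, adjusted p = 1.4e-12).

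Timp3, which stays bound to the matrix and also blocks ADAM17, had 341, 322 and 271 CPM in myotubes, against 375, 352 and 354 CPM in myoblasts and fell by 0.21 (SE 0.068, adjusted p = 0.0133). Its lowest value was in myotube library 3, and the groups did not overlap. Exons of Syn3 on the other strand cover 21.3% of its exon bases, and Syn3 averaged 0.87 CPM in myotubes against 1.67 CPM in myoblasts. Reck had 6.27, 6.22 and 5.804 CPM in myotubes, against 10.1, 8.69 and 7.53 CPM in myoblasts, with no overlap, and fell by 0.53 (SE 0.16, adjusted p = 0.00352). Timp4, under the filter, had 9, 1 and 8 counts in the myotube libraries, against 1, 2 and 1 in the myoblast libraries (ratio 6.87, 95% counting interval 2.26 to 27.9), with myotube library 2 at the myoblast level.

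Levels of different genes were compared per length, as reads per kilobase of exon and CPM unit (RPKM) over the union of GENCODE exons. Timp2 stood first and Timp1 after it in both groups. Timp2 averaged 303 ± 12.2 RPKM in myotubes and 294 ± 3.45 RPKM in myoblasts, and Timp1 averaged 170.3 ± 6.66 RPKM in myotubes and 262 ± 7.498 RPKM in myoblasts (SD, n = 3 each, here and in the next sentences). The levels of Timp2 and Timp1 did not come within their spread of each other in either group. Among proteases, Mmp2 led in myotubes, averaging 95.3 ± 3.49 RPKM in myotubes and 44.2 ± 2.42 RPKM in myoblasts. Mmp14 led in myoblasts, averaging 44.8 ± 0.251 RPKM in myotubes and 66.5 ± 1.16 RPKM in myoblasts. Adam9 averaged 64.7 ± 1.86 RPKM in myotubes and 65.8 ± 1.69 RPKM in myoblasts, and Adam19 averaged 42.7 ± 0.375 RPKM in myotubes and 15.9 ± 0.586 RPKM in myoblasts. On this scale Mmp14 and Adam9 lay within their spread in myoblasts, and in myotubes Adam9 lay above Mmp14, an order that turned with the other length. With the longest transcript as length, Mmp14 averaged 82.5 RPKM in myotubes and 122 RPKM in myoblasts. On that scale Adam9 averaged 65.8 RPKM in myotubes and 66.9 RPKM in myoblasts, and Adam19 averaged 47.6 RPKM in myotubes and 17.8 RPKM in myoblasts. Mmp2 still led the proteases of myotubes and Mmp14 those of myoblasts. The leading ADAMTS gene of myotubes was Adamts4, which averaged 25.8 ± 0.792 RPKM in myotubes and 8.45 ± 0.278 RPKM in myoblasts. That of myoblasts was Adamts7, which averaged 13.7 ± 0.302 RPKM in myotubes and 15.01 ± 0.514 RPKM in myoblasts. Adamts15, for all its rise, averaged 2.67 ± 0.0886 RPKM in myotubes and 0.0195 ± 0.00913 RPKM in myoblasts. In all, 29 members reached 1 RPKM in at least one group.

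**Figure D3:**
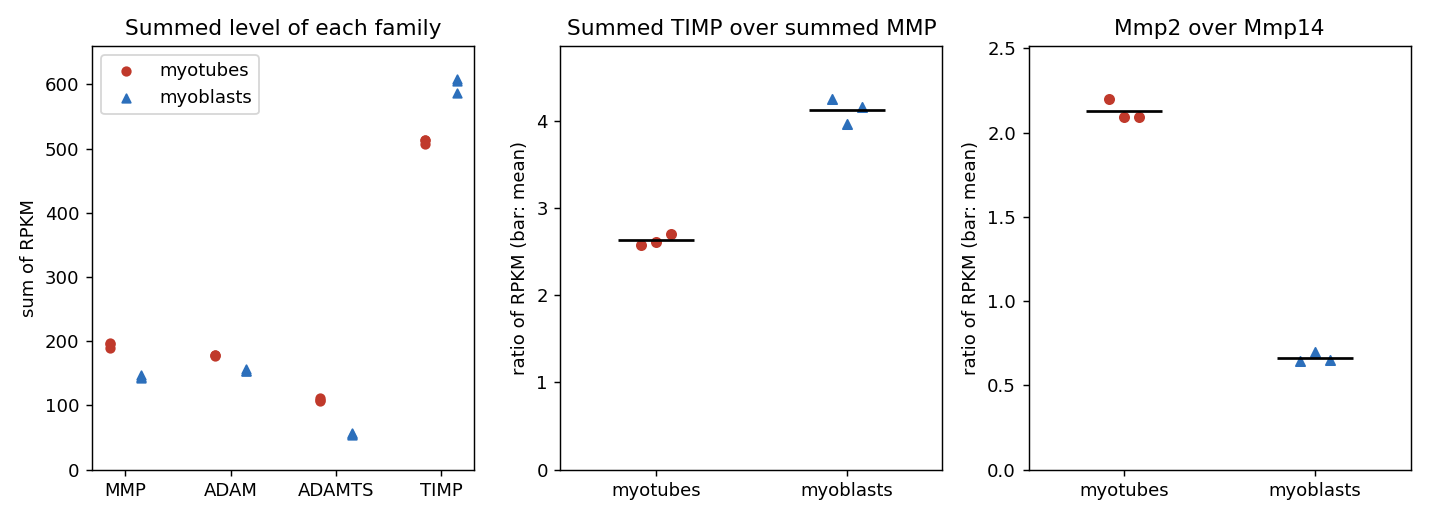
Left, the summed RPKM of each family per library, with myotubes (red circles) left of myoblasts (blue triangles); centre and right, the ratios of summed TIMP to summed MMP and of Mmp2 to Mmp14 per library, with bars at the group means. MMP, ADAM and ADAMTS sums lie higher in myotubes and the TIMP sum lower, so the TIMP to MMP ratio lies at 2.58 to 2.70 in myotubes and 3.96 to 4.25 in myoblasts. The rise of the ADAM sum is no larger than that of Adam19 alone.

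Summed protease levels were higher and the summed TIMP level lower in myotubes. The summed MMP level was 196, 197 and 190 RPKM in the myotube libraries, against 143, 148 and 145 RPKM in the myoblast libraries. ADAMTS genes summed to 109, 112 and 107 RPKM in myotubes, against 55.9, 56.5 and 53.5 RPKM in myoblasts. The genes that cleave hyalectans made up 49.9 to 51.3% of that sum in myotubes and 28.9 to 31.1% in myoblasts. ADAM genes summed to 178, 177 and 178 RPKM in myotubes, against 153, 157 and 153 RPKM in myoblasts. That rise is no larger than the rise of Adam19 alone, which averaged 42.7 RPKM in myotubes and 15.9 RPKM in myoblasts. Of the 10 tested ADAM genes 2 rose and 7 fell, so the higher ADAM sum is no rise across the family. TIMP genes summed to 507, 514 and 513 RPKM in myotubes, against 608, 586 and 605 RPKM in myoblasts, with Timp2 making up 57 to 60.6% in myotubes and 48.6 to 49.5% in myoblasts. Summed TIMP over summed MMP was 2.58, 2.61 and 2.70 in myotubes, against 4.25, 3.96 and 4.16 in myoblasts. With the longest transcript as length it was 2.20 to 2.27 in myotubes and 2.93 to 3.14 in myoblasts. The ratio of Mmp2 to Mmp14 was 2.20, 2.09 and 2.09 in myotubes, against 0.645, 0.697 and 0.653 in myoblasts, and 1.24 to 1.31 against 0.384 to 0.415 with the longest transcript. These sums are descriptions of RNA and carry no test.

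Some members are neighbours on a chromosome. Adamts15 and Adamts8 lie head to head on chromosome 9 with 20109 bases and no other protein-coding gene between them, and both had few or no counts in myoblasts and more in myotubes. Adamts1 and Adamts5 lie in a row on chromosome 16, 53059 bases apart, and both rose. In the chromosome 8 row of Adam18, Adam3, Adam5, Adam32 and Adam9 the levels were mixed. Adam18 and Adam3 had no counts, Adam5 fell, Adam32 had 7 counts in myotubes and 10 in myoblasts, and Adam9, 806 bases from Adam32, was among the most abundant proteases. A second row on chromosome 8, Adam24, Adam25, Adam20 and Adam39, had no counts.

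**Figure D4:**
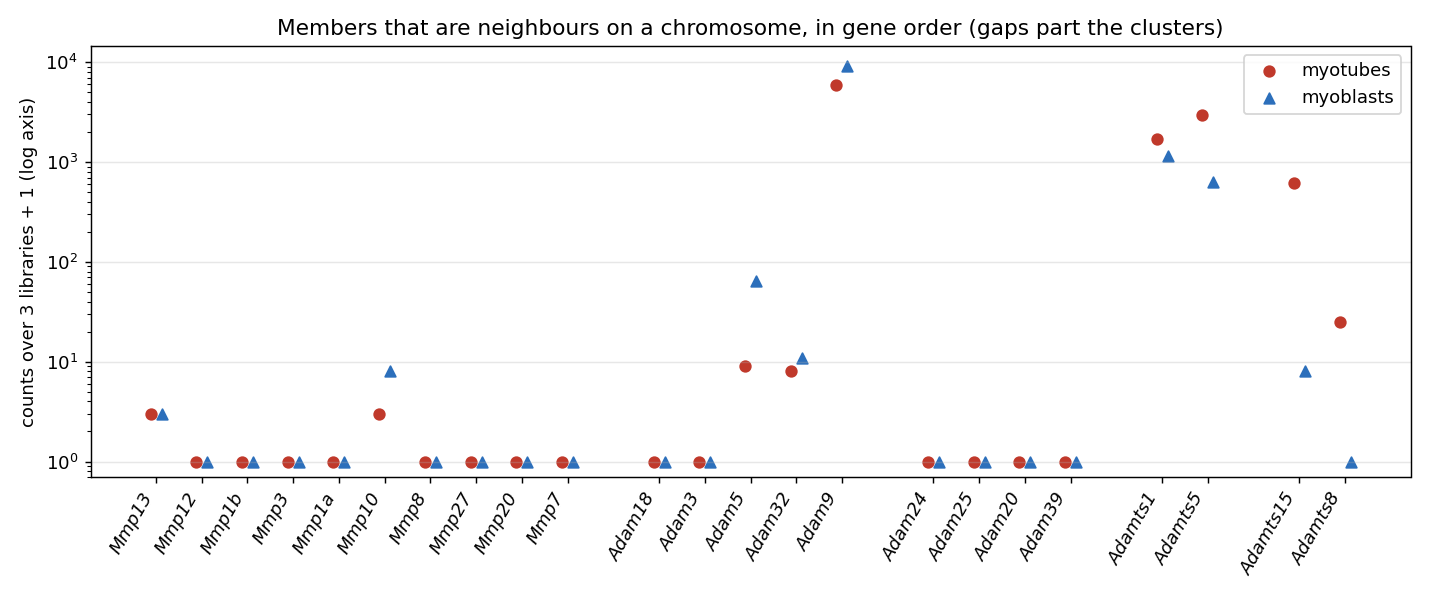
Counts summed over the 3 libraries of each group, plus 1, on a log axis, for members that are neighbours on a chromosome, in gene order, with myotubes as red circles and myoblasts as blue triangles. From left to right stand the MMP run of chromosome 9, both ADAM rows of chromosome 8, Adamts1 with Adamts5, and Adamts15 with Adamts8. Points at the foot of the axis have 0 counts.

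Other genes of matrix proteolysis were read from lists of known roles, and 41 of their 46 tested genes were called, beside 79.5% of all genes. Over all genes 40.2% were called higher and 39.2% lower, and the counts by list stand beside those shares. No test of a list as a whole was run. Of the 46, Adamtsl2, Tspan33 and Fap reached the filter's level in myotubes alone and Serpinb2 in myoblasts alone. The filter thus favoured a difference in these 4, which are counted below with that limit. ADAMTS-like proteins, which resemble ADAMTS enzymes without a protease domain, rose in 6 of 6 tested cases with a median log2 change of 1.34. Adamtsl1 averaged 47.5 ± 5.88 CPM in myotubes and 2.09 ± 0.202 CPM in myoblasts (log2 change 4.50, SE 0.14). Adamtsl2 had 126 counts over the myotube libraries and 3 over the myoblast libraries, a scaled ratio of 64.1 (95% counting interval 21.4 to 315). No member of this list fell.

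Plasminogen activation, the serine protease route that also activates pro-MMPs, was mostly lower, with 2 genes up and 6 down of 9 tested. The urokinase receptor gene Plaur averaged 15.3 ± 0.567 CPM in myotubes and 81.8 ± 1.72 CPM in myoblasts (log2 change −2.42, SE 0.072). Serpinb2, a urokinase inhibitor tested through its myoblast libraries alone, had 4 counts over the myotube libraries and 194 over the myoblast libraries (log2 change −4.89). The 2 that rose were urokinase itself (Plau), by 0.26, and the inhibitor Serpine2, by 0.49 on the log2 scale. Of the enzymes that mature procollagen at its other end, with their enhancers, all 3 tested fell: Pcolce2 by 2.37, Pcolce by 1.43 and Bmp1 by 0.34.

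Proprotein convertases, which activate MMPs and ADAMs by removing their propeptide, had 2 genes up and 4 down of 6 tested. Pcsk6 rose by 1.53 and Pcsk4 by 1.12 on the log2 scale, while Mbtps1 fell by 0.66. Partners of ADAM10 and ADAM17 had 4 up and 3 down of 8 tested. The tetraspanin genes Tspan33 and Tspan17 rose by 2.53 and 1.21, of which Tspan33 was tested through its myotube libraries alone. Frmd8, which holds the ADAM17 complex at the surface, fell by 1.39 and Tspan5 by 0.34. Of the growth factors shed by ADAMs, 1 rose and 5 fell of 6 tested. Areg had 3.42, 2.30 and 3.28 CPM in myotubes, against 13.4, 12.8 and 13.2 CPM in myoblasts (log2 change −2.12, SE 0.16), and Nrg1 fell by 1.57, while Egf rose by 1.26. Of the hyalectans and their link proteins only Vcan and Hapln4 were tested, and neither passed. Among other matrix and surface proteases 3 of 4 tested rose. Fap, tested through its myotube libraries alone, averaged 2.59 ± 0.94 CPM in myotubes and 0.295 ± 0.192 CPM in myoblasts (log2 change 3.09, SE 0.44). Prss23 rose by 0.60. Of 2 tested inhibitors of other kinds, Cst3 rose by 0.69 and Spock2 fell by 0.91.

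**Figure D5:**
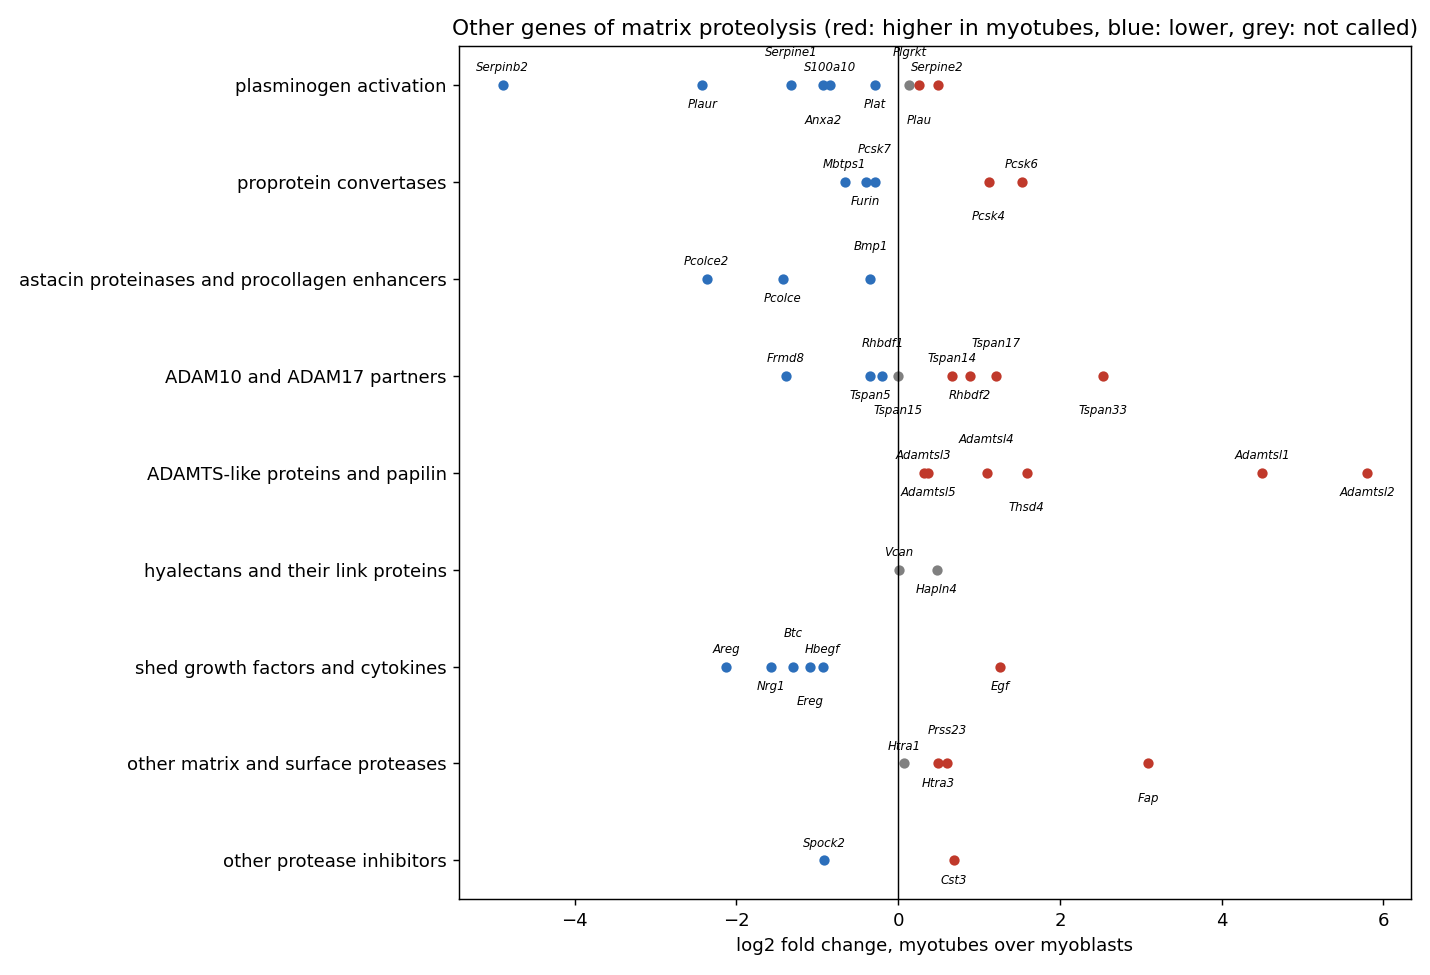
Log2 fold change of myotubes over myoblasts for the tested genes of 9 related lists that are reported here, with genes called higher in red, lower in blue and not called in grey. ADAMTS-like genes lie to the right of 0 throughout, while procollagen enhancers lie to the left.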

How the data were processed

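Poly(A) RNA of 3 myotube and 3 myoblast samples was sequenced with a stranded mRNA kit, per the labels' protocols. The deposited table, made by the authors, holds raw counts per gene in 1 column per library. The submitters' processing notes list fastp, STAR and featureCounts and the build mm10, without versions. The strand setting and the handling of reads with several matches are unknown here, so genes with antisense or near-identical partners have uncertain counts. No column of another sample was present, and 1049 genes had no symbol.

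Columns were matched to groups by sample title. Replicates of a group were not identical (chi-square per degree of freedom 1.35 to 3.22). All genes were fitted in R 4.3.3 with edgeR 4.0.16. Genes passed filterByExpr (minimum count 10, minimum total 15), scaling was by TMM, and the robust quasi-likelihood F test and glmTreat (log2 threshold 1) were adjusted by Benjamini-Hochberg over 12800 genes at 0.05. The SE was taken as the size of the log2 change over the root of F. It can fall below the counting error for genes with few counts in a group. CPM are TMM-scaled. The fit was tested on simulated data. Members, lists and the naming rule were chosen with earlier results of these data known. The rule gives values in every library for members with a group mean of at least 5 CPM or past the 2-fold test, and names in each list the 2 largest changes either way among called genes averaging at least 1 CPM, and Vcan, and some results it covers are not reported here. A few members outside it are also given by library, chosen after their values were seen. Exon lengths, overlaps and 50-base windows come from GENCODE vM21 (GRCm38) and promoters from RefSeq (GRCm38.p6), read with Python 3.11.15. The planned split of ADAM genes by active site was not made, since protein sequences were not used here. The alternatives replaced TMM with size factors of DESeq2 1.42.0 or with total counts, replaced the test with the DESeq2 Wald test or limma-voom (limma 3.58.1), dropped the filter or set it at 1 CPM in 3 libraries, added the replicate number as a block, or left out each library.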

Additional observations from a re-analysis of the deposited data

How the results depend on the processing

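Across 13 alternatives, 25 of the 34 tested members kept direction and call in every one that could be fitted, and 9 changed in at least one. The 15 members higher and 14 lower in myotubes became 13 and 17 with scaling by total counts. They ranged over 15 to 16 and 13 to 15 when single libraries were left out. With no filter 50 members were tested, of which 18 were called higher and 16 lower, beside 11105 of all 18455 genes called. The number of members over 2-fold higher, 11, ranged over 9 to 11 without single libraries. Mmp2 and Adamts1 lost that call with scaling by total counts, in the DESeq2 Wald test and in limma-voom, and Mmp2 also with no filter. The number over 2-fold lower, 2, was 0 in the DESeq2 Wald test, 1 in limma-voom and 1 to 3 without single libraries. With scaling by total counts, Mmp23 was called over 2-fold lower as well. Timp2 turned to −0.11 with scaling by total counts and to −0.0056 with no filter, against 0.04 in the reported fit, where it was not called. Called genes of the related lists, 41, numbered 42 to 44 without single libraries. With the longest transcript as length, 29 members still reached 1 RPKM. Same-numbered libraries correlated in their deviations by −0.018, 0.062 and 0.049. Myotube libraries 2 and 3 correlated best with the myoblast library of their own number, and library 1 did not. With 3 libraries per group these values cannot decide whether the numbers pair the samples. The replicate block gave 15 members higher and 14 lower, 11 and 2 of them over 2-fold, and 41 list genes. Depth limits the 16 members under the filter, of which Adamts8, Adamts17 and Timp4 were called over 2-fold higher only with no filter. The causes of these changes were not tested.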
